A study of Mus musculus with 10 samples.

Results

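Brains of E18.5 mouse embryos that were labelled as lacking COP1, cJun and ETV1, a triple knockout (TKO), were set against those of controls heterozygous for COP1 (control). The comparison rests on the 2 libraries labelled TKO and the 2 labelled as controls, which are 4 of the 10 libraries in the series, and covers the 18671 genes that passed a filter on low counts. The libraries were taken by their labels alone. The other 6 libraries were 2 each of a COP1 knockout (KO), a double knockout of COP1 and cJun (DKO) and a quadruple knockout that lacks ETV5 as well (QKO), and they served to estimate the spread and to place TKO beside its neighbours. All genotypes other than the control lack COP1 by their labels, and DKO, TKO and QKO all lack cJun. The labels name neither the alleles nor the promoter or cell type in which the genes were deleted, and they give no litter and no sex. Libraries were made from RNA of brain without the olfactory bulbs, so that each is a mixture of all cell types of the tissue, and nothing says whether animals were pooled. The labels do not say that the libraries of a genotype are from different animals, so p-values measure only the spread between these libraries, and for TKO that spread may be technical.

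COP1 is the part of a ubiquitin ligase that binds the protein to be degraded. Its known substrates include the transcription factor cJun and the PEA3 group of ETS transcription factors, which are ETV1, ETV4 and ETV5. In cells without COP1 these proteins are known to accumulate. cJun pairs with Fos proteins in the AP-1 complex, and the PEA3 factors act downstream of fibroblast growth factor receptors and the kinase ERK, where Etv4 and Etv5 are also among the induced target genes. Tribbles pseudokinases such as TRIB1 hand substrates to COP1. Around birth, radial glia of the mouse brain turn from making neurons to making astrocytes and oligodendrocyte precursor cells (OPCs). The comparison asks how a brain without COP1 differs from a control when cJun and ETV1 are removed with it.

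The promoters of 4 of the genes that differed are shown because they illustrate which of them carry the letters that AP-1 or ETS proteins can bind. The AP-1 letters searched were TGACTCA and its reverse complement TGAGTCA, and the ETS letters were CCGGAAG and its reverse complement CTTCCGG. The letters of the 2 motifs cannot overlap. Each window runs from 250 bases before to 50 bases after an annotated gene start in the RefSeq table for GRCm38.p6 and is written 5′ to 3′ on the strand of the gene, with a motif in capitals. Etv5, a PEA3 factor gene that fell (chr16:22439521-22439820, minus strand), and Olig2, an OPC transcription factor gene that rose (chr16:91225300-91225599, plus strand), held neither motif in the windows searched. Kcnip3, a calcium-binding potassium channel partner (chr2:127522045-127522344, minus strand), held an AP-1 motif at bases 129 to 135 of the window. Rhoq, the gene of a small GTPase (chr17:86962861-86963160, plus strand), held an ETS motif at bases 90 to 96.
Etv5: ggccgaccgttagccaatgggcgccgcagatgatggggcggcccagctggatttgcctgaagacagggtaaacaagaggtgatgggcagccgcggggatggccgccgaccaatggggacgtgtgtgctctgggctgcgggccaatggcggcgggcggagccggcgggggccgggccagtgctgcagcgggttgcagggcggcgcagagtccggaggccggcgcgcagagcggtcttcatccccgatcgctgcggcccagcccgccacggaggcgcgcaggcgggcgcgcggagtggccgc
Olig2: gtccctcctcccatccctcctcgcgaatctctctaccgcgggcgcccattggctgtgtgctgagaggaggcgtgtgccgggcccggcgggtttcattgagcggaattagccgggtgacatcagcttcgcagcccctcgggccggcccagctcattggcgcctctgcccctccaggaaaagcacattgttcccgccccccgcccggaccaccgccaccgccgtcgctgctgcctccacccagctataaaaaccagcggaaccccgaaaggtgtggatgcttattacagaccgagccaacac
Kcnip3: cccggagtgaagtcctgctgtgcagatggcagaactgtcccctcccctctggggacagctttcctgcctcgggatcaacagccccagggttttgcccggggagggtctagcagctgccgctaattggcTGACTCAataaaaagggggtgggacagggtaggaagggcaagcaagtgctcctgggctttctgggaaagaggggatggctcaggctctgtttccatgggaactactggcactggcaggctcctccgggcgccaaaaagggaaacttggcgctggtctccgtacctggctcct
Rhoq: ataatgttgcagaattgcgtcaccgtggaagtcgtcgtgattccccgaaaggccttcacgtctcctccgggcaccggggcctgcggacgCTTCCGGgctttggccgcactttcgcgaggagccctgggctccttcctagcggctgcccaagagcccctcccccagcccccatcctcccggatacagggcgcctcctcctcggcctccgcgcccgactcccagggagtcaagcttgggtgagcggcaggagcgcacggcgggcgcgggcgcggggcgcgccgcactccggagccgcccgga
Of the genes that rose in TKO, 11 had a promoter in the table. The AP-1 letters were in 1 of the 11, that of Kcnip3, and in 4.54% of the 13097 promoters of genes tested. The ETS letters were in 3 of the 11, those of Rhoq, Hjurp and 2410018L13Rik, and in 16.7% of all. Of the genes that fell, 5 had a promoter, and 0 of these held either motif. A match is a description of the letters and not of binding.

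The controls held 43384681 and 43915724 counts and the TKO libraries 41113475 and 33403801. The top 10 genes by count made up 2.61 to 2.69% of these libraries. Neuronal transcripts were abundant in all 4, with Stmn2 at 641 and 643 nRPKM in controls and 631 and 658 in TKO, where nRPKM is the authors' RPKM after scaling by library size factors. Control 1 had the pattern of female tissue and the other 3 that of male tissue. Xist, which coats the silenced X chromosome, was at 1848 CPM (counts scaled to a common library size) in control 1 and between 0.903 and 1.08 CPM in the others. Uty, a gene of the Y chromosome, was at 0 CPM in control 1 and between 23.1 and 25.8 CPM in the others. Sex was therefore not balanced between the groups. The mean level of 13 HOX genes, which mark the caudal hindbrain, was 0.75 and 1.09 log2 units below the control mean in TKO 1 and TKO 2, while the controls lay 0.24 on either side of it. The libraries of a group differed by more than counting error, with a chi-square per degree of freedom of 9.8 in controls and 7.71 in TKO, so the libraries of a group were not 1 library deposited again. Whether the TKO libraries are from different animals is not shown by this, while the controls, which differ in sex pattern, are from different animals.

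Jun was the targeted gene whose count could check the labels, and it was low in both TKO libraries. It stood at 14.99 and 15 nRPKM in controls and at 1.60 and 1.48 in TKO, a fall of 9.67-fold. On the log2 scale, which all differences below use, this was -3.27 ± 0.22 (SE, 2 libraries in each group; adjusted p = 7.67e-05 by edgeR). Cop1, the ligase gene itself, was at 5.0 and 4.74 nRPKM in controls and 4.34 and 4.23 in TKO. The difference of -0.18 ± 0.09 did not pass (adjusted p = 0.524 by edgeR). Etv1 was at 4.82 and 4.95 nRPKM in controls and 3.80 and 3.67 in TKO. Its difference of -0.38 ± 0.11 did not pass either (edgeR adjusted p = 0.306), although it did in a fit of these 4 libraries alone (adjusted p = 0.0224, within a range of 0.0224 to 0.895 over the alternatives). Reads summed across a gene do not reveal a missing exon, so the counts of Cop1 and Etv1 do not check their labels, and for these 2 genes the directions below rest on the labels alone.

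Few genes changed. At an adjusted p under 0.05, edgeR called 28 of 18671 genes (0.15%), 20 of them higher in TKO (0.107%) and 8 lower (0.0428%). At an unadjusted p under 0.05, 1117 genes were higher (5.98%) and 797 lower (4.27%). The log2 fold change lay within 0.2 of 0 for 73.9% of the genes, and its median over all genes was 0.004. The count depended on which libraries set the spread. A fit of the 4 libraries alone called 392 genes higher (2.14%) and 119 lower (0.65%), among them all 28. The common coefficient of variation between libraries was 0.0672 in controls and 0.0593 in TKO, against 0.11 in DKO and 0.109 in QKO. A fit without the DKO and QKO libraries, added after the data were seen, called 297 genes higher and 82 lower, among them all 28. That fit also had fewer libraries, and the part of the spread in the count was not otherwise tested. Of the 28 calls, 10 passed in each of the 4 fits that left out 1 of the 4 libraries, and 14 passed in 0 of them. Leaving out control 1, control 2, TKO 1 or TKO 2 gave 18, 13, 16 or 14 calls. All 28 kept their direction in the 12 alternatives run.

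**Figure D1:**
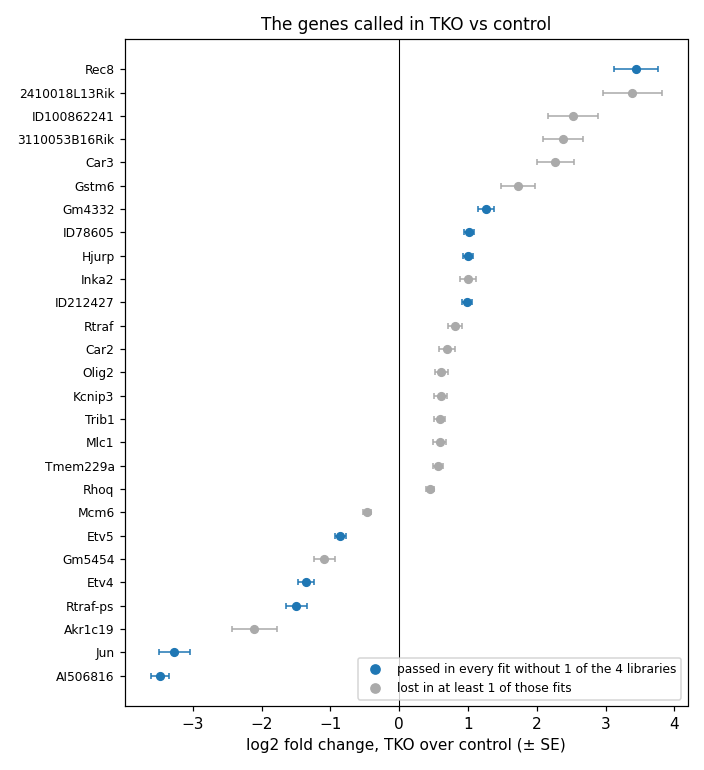
Log2 fold change of TKO over control with its standard error for 27 of the 28 genes called, from the fit over all 10 libraries. Genes in blue passed in every fit that left out 1 of the 4 libraries, among them Jun, Etv4, Etv5, Hjurp and Rec8, and genes in grey did not. Gm7444, at 0 counts in both controls, has no finite fold change and is left out.

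Etv4 and Etv5 fell in TKO, which makes 2 of the 3 PEA3 factors. Etv1, the targeted one, is given above. Etv4 was at 5.15 and 6.08 nRPKM in controls and 2.09 and 2.29 in TKO, so that the groups lay far apart. It fell 2.55-fold (-1.35 ± 0.12, edgeR adjusted p = 0.000527), and its adjusted p lay between 0.00331 and 0.0163 with 1 library left out. Etv5, which no label of TKO names as deleted, was at 6.72 and 7.24 nRPKM in controls and 3.75 and 3.93 in TKO. It fell 1.81-fold (-0.85 ± 0.08, with a change between -0.91 and -0.80 with 1 library left out, edgeR adjusted p = 0.000694). Among all 5 genotypes, Etv4 and Etv5 were highest in controls, and TKO stood above the KO libraries, where Etv4 was at 1.18 and 1.20 and Etv5 at 2.65 and 2.68 nRPKM.

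No other ERK feedback gene was called with Etv4 and Etv5 by edgeR. On a list of 17 ERK feedback genes these were the 2 calls by edgeR, both lower. At an unadjusted p under 0.05, 2 genes were higher and 4 lower, against 5.98% and 4.27% of all genes. Spry1, a Sprouty inhibitor of growth factor signalling, was at 5.59 and 5.498 nRPKM in controls and 7.52 and 7.43 in TKO. The difference of 0.44 ± 0.08 missed the threshold by edgeR (adjusted p = 0.0924) and passed by DESeq2 (0.0411). Spry2 was at 0.34 ± 0.09 and Dusp6, an ERK phosphatase gene, at 0.14 ± 0.08, and neither passed. Dusp7 (-0.35 ± 0.11) and Spred3 (-0.19 ± 0.07) were lower and did not pass either. Of 20 FGF signalling genes 0 were called by edgeR or DESeq2, 3 were higher and 4 lower at an unadjusted p under 0.05, and Fgf15, a ligand of the family, was at 0.40. Fgfbp3 was at -0.42 ± 0.11 and passed as lower with the HOX mean as a covariate (edgeR adjusted p = 0.0436).

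Trib1, the gene of a pseudokinase that brings substrates to COP1, rose in TKO. It was at 3.79 and 3.76 nRPKM in controls and at 5.92 and 5.38 in TKO, 1.503-fold higher (0.59 ± 0.08, edgeR adjusted p = 0.0124). The rise was not particular to TKO. KO 2 and DKO 2, with fewer total counts than either control, held 1247 and 947 counts of Trib1, against 718 and 716 in controls. The call was lost in each fit with 1 library left out (adjusted p between 0.0515 and 0.156) and without the libraries with high Xist (0.0692). It was the 1 call among 10 genes of the COP1 ligase and the Tribbles, whose median was 0.01. Trib2, a second member of that family, was at 44.4 and 46.0 nRPKM in controls and 48.3 and 46.6 in TKO, and Det1, an adaptor of the ligase, was at 0.06 ± 0.10. Of 15 AP-1 family genes Jun alone was called, and Junb (0.08 ± 0.15) and Fos (-0.10 ± 0.22) did not pass.

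**Figure D2:**
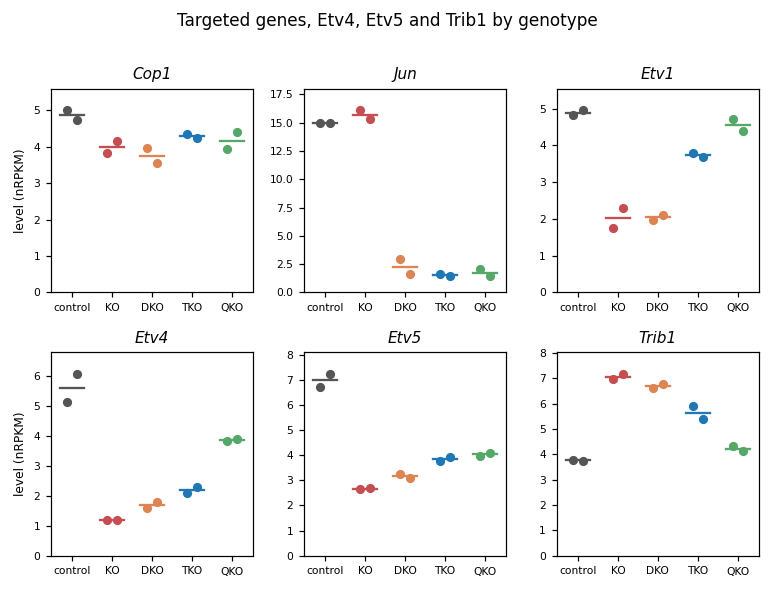
Levels in nRPKM of the targeted genes Cop1, Jun and Etv1 and of Etv4, Etv5 and Trib1 in all 10 libraries. Points are libraries and bars are group means. In TKO, Jun is near 1.5, Etv4 and Etv5 lie between the controls and KO, and Trib1 lies above the controls.

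A small number of glial genes rose in TKO. Olig2, a transcription factor of OPCs and of the progenitors that form them, was at 11.9 and 13.0 nRPKM in controls and 18.4 and 19.5 in TKO. It was 1.53-fold higher (0.61 ± 0.09, edgeR adjusted p = 0.0208). The call held with the HOX mean as a covariate (0.64, adjusted p = 0.0235), a fit with a limit given below. It also held with Xist as a covariate (0.64, adjusted p = 0.0495). It was lost without the libraries with high Xist (0.55, adjusted p = 0.0835) and with each of the 4 libraries left out (adjusted p between 0.0968 and 0.304). Olig2 was the 1 call among 16 OPC genes, whose median was 0.15 against 0.004 over all genes. At an unadjusted p under 0.05, 6 of the 16 were higher and 2 lower, against 5.98% and 4.27% of all genes. Olig1, the neighbour and relative of Olig2, was at 39.1 and 46.2 nRPKM in controls and 57.2 and 67.0 in TKO. The difference of 0.55 ± 0.13 did not pass by edgeR (adjusted p = 0.213) and did by DESeq2 (adjusted p = 0.00291). Receptors and later factors of the lineage were not called. Pdgfra, the growth factor receptor of OPCs, differed by 0.26 ± 0.08, Sox8 by 0.28 ± 0.08 and Sox10, a regulator of oligodendrocyte fate, by 0.14 ± 0.17, and edgeR called 0 of the 3. Among 12 genes of myelinating oligodendrocytes 0 were called by edgeR or DESeq2, with 1 higher and 3 lower at an unadjusted p under 0.05 and a median of -0.14. In these bulk samples a change in the number of cells of a type and a change in RNA per cell cannot be told apart.

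Astrocyte genes shifted little, with Mlc1 as the 1 call among 20. Mlc1 encodes a membrane protein of astrocyte end-feet. It was at 16 and 19.1 nRPKM in controls and 24.6 and 27.9 in TKO, 1.503-fold higher (0.59 ± 0.09, edgeR adjusted p = 0.029). KO 2, with fewer total counts than either control, held 2647 counts of Mlc1, against 1751 and 2107 in controls. The call held without control 2 and was lost without control 1, TKO 1 or TKO 2 (adjusted p up to 0.449) and in both fits that addressed sex (0.113 and 0.214). Acsbg1, an acyl-CoA synthetase gene of astrocytes, was at 11.2 and 12.9 nRPKM in controls and 16.3 and 16.7 in TKO, a difference of 0.46 ± 0.08 that passed by DESeq2 (adjusted p = 0.00171) and not by edgeR (0.0742). Of the 20 astrocyte genes 18 had a fold change above 0, and the median was 0.15 against 0.004 over all genes. At an unadjusted p under 0.05, 5 of the 20 were higher, against 5.98% of all genes. Aqp4, Slc1a3, Fgfr3 and Aldh1l1 were not called, at 0.26 ± 0.14, 0.14 ± 0.07, 0.21 ± 0.10 and -0.09 ± 0.08.

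The filament genes of radial and reactive glia were not called. Gfap, the filament of astrocytes, was at 5.16 and 4.87 nRPKM in controls and 4.33 and 7.10 in TKO, so that the groups overlapped. Vim was at 152 and 145 nRPKM in controls and 130 and 125 in TKO, with a difference of -0.21 ± 0.07 (edgeR adjusted p = 0.37). Nes, the filament of neural stem cells, was at 22.5 and 22.3 against 18.8 and 17.7, with a difference of -0.29 ± 0.08 (adjusted p = 0.299 by edgeR). Neither the difference of Vim nor that of Nes passed. Of 20 radial glia genes and of 14 reactive glia genes 0 were called by edgeR or DESeq2, with medians of -0.03 and 0.05. At an unadjusted p under 0.05, 2 radial glia genes were higher and 5 lower, and 1 reactive glia gene was higher and 3 lower. Of all genes tested, 5.98% were higher and 4.27% lower at that threshold. Egfr, a receptor of glial progenitors, was at 4.74 and 5.16 nRPKM in controls and 5.15 and 4.87 in TKO.

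**Figure D3:**
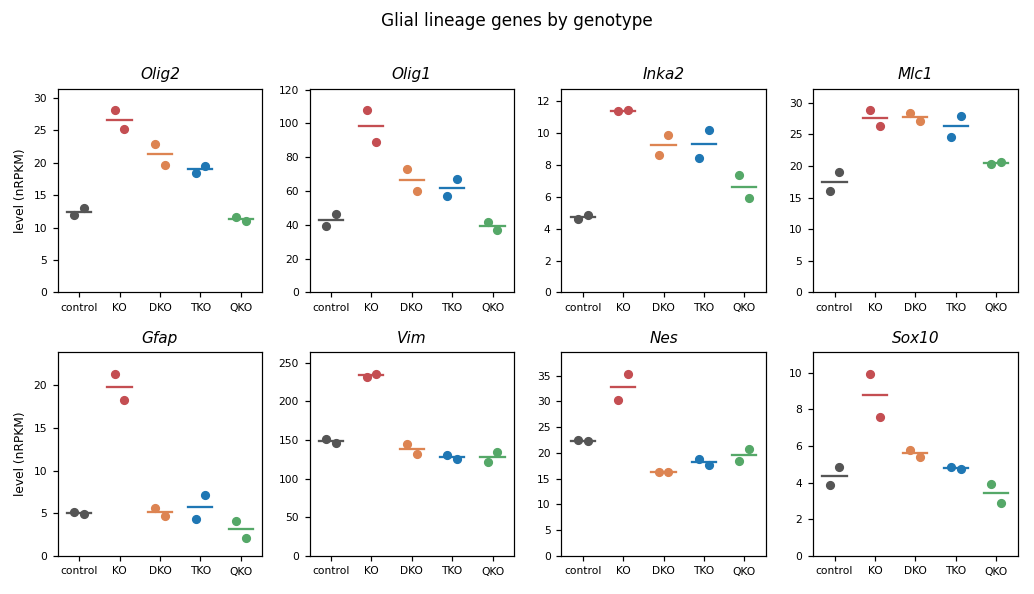
Levels in nRPKM of 8 glial lineage genes in all 10 libraries, with points for libraries and bars for group means. Olig2, Olig1, Inka2 and Mlc1 are higher in TKO than in controls, while the TKO libraries lie below the controls for Vim and Nes and near them for Gfap and Sox10.

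Inka2, which encodes an inhibitor of the kinase PAK4, rose 1.99-fold in TKO, from 4.58 and 4.82 nRPKM to 8.44 and 10.2 (0.99 ± 0.12, edgeR adjusted p = 0.00495). It passed without TKO 1 (adjusted p = 0.0142) and was lost without control 1, control 2 or TKO 2 (up to 0.0679). Kcnip3 rose from 10.3 and 10.7 nRPKM to 14.7 and 16.9 (0.60 ± 0.09). Tmem229a rose from 5.63 and 5.51 to 7.89 and 8.55 (0.57 ± 0.08), and Rhoq from 9.999 and 10.25 to 13.4 and 14.1 (0.45 ± 0.06). The edgeR adjusted p of these 3 were 0.029, 0.0118 and 0.0124, and groups that do not overlap were a condition for naming them. All 3 calls were lost in each fit that left out 1 of the 4 libraries (adjusted p between 0.0642 and 0.445) and without the libraries with high Xist. KO 2, with fewer total counts than either control, held 2349, 1681, 1898 and 2804 counts of Inka2, Kcnip3, Tmem229a and Rhoq. Control 1 held 1028, 1563, 1320 and 1937, and control 2 held 1091, 1631, 1300 and 1999.

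Car3 and Car2, which encode carbonic anhydrases, rose in TKO. Car3, an enzyme best known from muscle and fat, was at 0.595 and 0.426 nRPKM in controls and 2.23 and 2.69 in TKO, 4.82-fold higher (2.27 ± 0.27, edgeR adjusted p = 0.00495). It was the 1 call among 13 genes of skeletal and cardiac muscle, whose median was -0.04, and the muscle actin gene Acta1 was at 2.12 and 2.29 nRPKM in controls and 1.78 and 2.44 in TKO. Car3 was lost without control 2 or TKO 2 (adjusted p up to 0.089). Car2, the carbonic anhydrase of oligodendrocytes, rose from 8.51 and 8.96 to 13.3 and 14.9 nRPKM (0.69 ± 0.11, adjusted p = 0.0422 by edgeR). Gstm6, a glutathione transferase gene, rose from 0.499 and 0.624 to 1.68 and 2.06 nRPKM (1.73 ± 0.25, adjusted p = 0.0201 by edgeR). Neither Car2 nor Gstm6 passed with 1 of the 4 libraries left out or in the fits that addressed sex.

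Mcm6, a subunit of the replicative helicase, was at 17.9 and 18.6 nRPKM in controls and 13.1 in both TKO libraries, the lowest of the 10 libraries. It fell 1.38-fold (-0.47 ± 0.06, edgeR adjusted p = 0.0103, and 0.0679 to 0.127 with 1 library left out). It was the 1 call among 23 proliferation genes. Mcm2, Mcm3, Mcm4, Mcm5 and Mcm7, the other subunits of that helicase, lay between -0.10 and -0.01, and Mki67, a marker of dividing cells, was at -0.01 ± 0.10. Hjurp, the gene of a chaperone that loads the centromeric histone, rose 2.0-fold, from 9.62 and 9.51 nRPKM to 19.5 and 18.6 (1.00 ± 0.07, edgeR adjusted p = 7.67e-05), and passed in all fits with 1 library left out. A pair of identifiers without a RefSeq name rose with it, and these and Rec8 were singled out after their values were seen. ID212427 rose by 0.98 ± 0.07 and ID78605 by 1.01 ± 0.07, and their counts were between 0.546 and 0.565 times and between 0.820 and 0.834 times those of Hjurp in the 4 libraries. These 3 identifiers may share reads, so they may be 1 measurement. Rec8, a cohesin subunit of meiotic cells, was at 0.0624 and 0.0620 nRPKM in controls and 0.658 and 0.718 in TKO (3.44 ± 0.32, edgeR adjusted p = 0.000676), which corresponds to 6 counts in each control and 60 and 55 in TKO.

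AI506816, an RNA gene with no role known here, fell 11.1-fold, from 4.59 and 4.37 nRPKM in controls to 0.367 and 0.436 in TKO (-3.48 ± 0.14, edgeR adjusted p = 5.16e-07). It was as low in KO, at 0.329 and 0.320, and as high as the controls in DKO and QKO, at 4.34 to 5.01, so its level did not follow the number of deletions in the labels. Rtraf, which encodes a component of RNA transport granules, rose from 16.5 and 14.9 to 24.9 and 29.8 nRPKM (1.75-fold, edgeR adjusted p = 0.00895), while the pseudogene Rtraf-ps, singled out after its values were seen, fell from 21.7 and 19.0 to 5.81 and 8.57 (-1.50 ± 0.15). Rtraf-ps held 44.9 and 44.2% of the summed CPM of the pair in controls and 12.7 and 15.1% in TKO. The sum itself was 49.2 and 43.8 CPM in controls and 47.0 and 57.9 CPM in TKO, so the groups overlapped in the sum. The pair may share reads, and their separate values are uncertain. Rtraf was lost without control 2 or TKO 2, with an adjusted p up to 0.131.

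**Figure D4:**
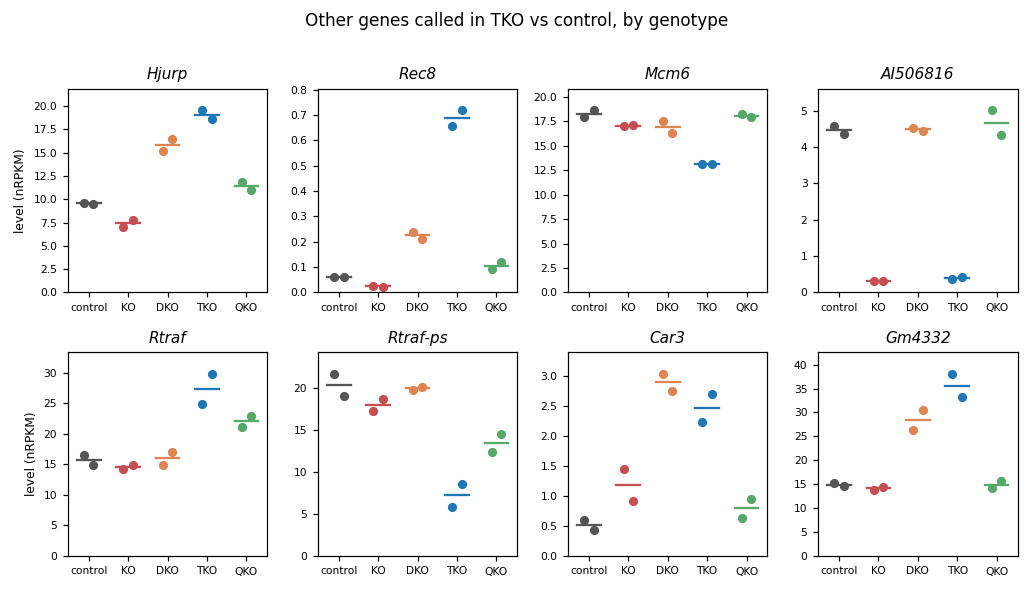
Levels in nRPKM of 8 further genes called in TKO against control, in all 10 libraries, with points for libraries and bars for group means. Hjurp, Rec8 and Gm4332 are highest in TKO and next in DKO, Mcm6 is lowest in TKO, and AI506816 is low in KO and TKO.

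The remaining calls have clone names, predicted names or low levels, and are named after their values were seen. Gm4332 (1.26 ± 0.11) passed in all fits with 1 library left out. 3110053B16Rik (2.38 ± 0.29), ID100862241 (2.52 ± 0.36) and 2410018L13Rik (3.39 ± 0.43) were higher in TKO and were lost in each of those fits. Gm7444 had 0 counts in both controls and 21 and 11 in TKO, whose mean is at least 6.08-fold higher against a floor of 3 counts per control library. Its call was lost with any 1 of the 4 libraries left out and in both fits that addressed sex. Akr1c19, an aldo-keto reductase gene (-2.11 ± 0.32), and Gm5454 (-1.09 ± 0.16) were lower and were also lost in each fit with 1 of the 4 libraries left out. By position, 6 calls lay on chromosome 3, which is 0.721% of its 832 tested genes, against 0.15% of all genes tested. Calls without a RefSeq name had no position. On the X chromosome 0 of the 603 tested genes were called, and 0 of the 9 on the Y. Among the 50 tested genes on either side of Cop1, Jun and Etv1, 0 were called. At a share of 0.15% over all genes, 0 calls in so few genes says little. On chromosome 12, 2410018L13Rik and 3110053B16Rik stood 70 and 78 tested genes from Etv1.

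Most cell types and pathways showed no call. Of 48 gene lists 40 had 0 calls by edgeR, and 35 of these 40 had a median within 0.2 of 0. Over all genes tested 0.15% were called, so 0 calls on a list this short says little about its cell type or pathway. Neuronal genes had 0 calls by edgeR or DESeq2 on the lists of cortical layers, GABAergic interneurons and striatum. Their medians lay between -0.07 and -0.01, and at an unadjusted p under 0.05, 1 deep layer and 1 upper layer gene were higher and 2 interneuron genes and 1 striatal gene lower. Tbr1, a factor of deep cortical neurons, was at 31.6 and 36.1 nRPKM in controls and 32.4 and 29.6 in TKO. Gad1, which makes the transmitter GABA, was at 55.7 and 58.7 against 55.7 and 52.0. Intermediate progenitor genes had a median of -0.20, with 0 of 13 called by edgeR or DESeq2. At an unadjusted p under 0.05, 5 of the 13 were lower, against 4.27% of all genes. Eomes, the factor that defines these progenitors, was at 7.64 and 8.40 nRPKM in controls and 6.403 and 5.72 in TKO (-0.40 ± 0.15, edgeR adjusted p = 0.413). Microglial, endothelial, mural, meningeal and choroid plexus genes had 0 calls by edgeR and DESeq2 and medians between -0.12 and 0.09, and at an unadjusted p under 0.05, 2 microglial, 1 mural and 2 choroid plexus genes were higher and 1 endothelial gene lower.

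Genes of the caudal hindbrain were lower in TKO than in controls without passing the test. Of 13 HOX genes 12 had a fold change below 0, 2 were lower at an unadjusted p under 0.05, and the median was -1.07. Over all genes 4.27% were lower at that threshold, and the median was 0.004. edgeR and DESeq2 called 0 of the 13 HOX genes, and the fit of the 4 libraries alone called 6 lower. Hoxb5 was at 1.30 and 2.72 nRPKM in controls and 0.485 and 0.451 in TKO (-2.09 ± 0.92), and Hoxa5 at 1.39 and 2.92 against 0.681 and 0.683 (-1.65 ± 0.67). Of 16 hindbrain neuron genes 16 had a fold change below 0, with a median of -0.46, 0 calls by edgeR or DESeq2 and 3 lower at an unadjusted p under 0.05. Among them Slc6a5, the glycine transporter of inhibitory hindbrain neurons, was at 3.08 and 2.95 nRPKM in controls and 2.06 and 1.47 in TKO. The HOX mean also varied within genotypes. It lay 0.16 and 2.57 log2 units below the control mean in QKO 1 and QKO 2. With the HOX mean as a covariate 117 genes passed, 99 higher and 18 lower, among them all 28. The slope of that covariate comes from differences within groups, which were largest between QKO 1 and QKO 2, at 0.90 and -1.77 log2 CPM. The controls were at 0.81 and 1.31 and TKO at 0.29 and -0.06, so the fit carries a slope from QKO to them. Whether the share of hindbrain tissue in each library had a part in the glial differences was not tested by this fit or otherwise.

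Interferon response genes were the list with the highest median among those with 0 calls. It was 0.40, and 16 of the 18 genes were above 0. At an unadjusted p under 0.05, 7 were higher and 0 lower, and neither edgeR nor DESeq2 called any. Over all genes 5.98% were higher and 4.27% lower at that threshold, with a median of 0.004. Usp18, a protease that removes the ubiquitin-like ISG15, was at 0.3004 and 0.322 nRPKM in controls and 0.608 and 0.724 in TKO. Isg15 itself was at 1.86 and 1.93 against 2.46 and 2.90 (0.50 ± 0.20). The mean of the list was 0.30 and 0.54 log2 units above the control mean in TKO 1 and TKO 2 and at or below it in the KO, DKO and QKO libraries. The fold change of some class I histocompatibility genes depended on which control was used. H2-K1 was at 3.31 nRPKM in control 1 and 7.48 in control 2, and at 3.01 and 3.54 in TKO. edgeR called 0 of the 19 class I genes, with 2 higher and 3 lower at an unadjusted p under 0.05. With Xist in the fit H2-K1, H2-D1 and H2-T10 were called lower (edgeR adjusted p up to 0.00641). DESeq2, run without Xist in the fit, did not call these 3 (adjusted p from 0.771 to 0.889), as edgeR without Xist did not. It was not run with Xist. Without both high-Xist libraries, control 1 and DKO 1, their changes were -1.19, -0.87 and -1.09. That fit left control 2 as the lone control, assumed to vary like the other groups. With 1 of the 4 libraries left out, H2-K1 lay between -1.188 and -0.015, and the 3 genes were not called.

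**Figure D5:**
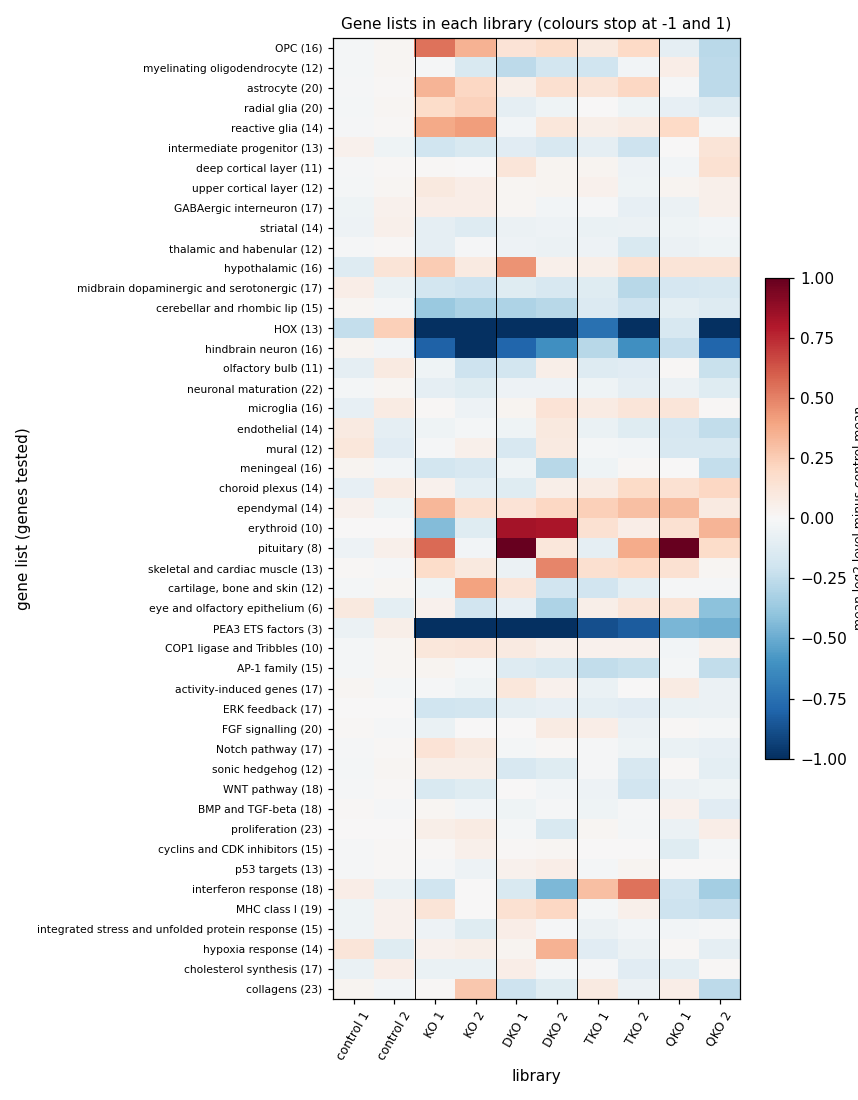
Mean log2 CPM of 48 gene lists in each library, as the difference from the mean of the 2 controls, with the number of genes tested in parentheses and colours that stop at -1 and 1. In the TKO columns, OPC, astrocyte, ependymal and interferon genes are above the controls, and PEA3, HOX and hindbrain genes are below them.

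TKO was next set against KO, which tests how the removal of cJun and ETV1 together changes a brain without COP1. edgeR called 62 genes (0.332%), 18 higher in TKO and 44 lower. Filament genes were lower in TKO than in KO. Gfap was at 21.3 and 18.3 nRPKM in KO, 3.49-fold above TKO (-1.80 ± 0.26, adjusted p = 0.0126), Vim at 232 and 236 (-0.88 ± 0.07, adjusted p = 0.000231) and Nes at 30.3 and 35.4 (-0.85 ± 0.08, adjusted p = 0.000728). Vim and Nes passed with any 1 of the 4 libraries left out, and Gfap passed without TKO 2 alone (adjusted p = 0.0398, and up to 0.193 in the other 3 fits). Egfr was also lower (-0.66 ± 0.09, adjusted p = 0.008), as were the astrocyte genes Aldh1l1 (-0.68 ± 0.08) and Fgfr3 (-0.57 ± 0.10) and, by a narrow margin, Olig2 (-0.49 ± 0.09, adjusted p = 0.0482). Egfr, Fgfr3 and Olig2 passed in 0 of the 4 fits that left out a library, and Aldh1l1 was lost without KO 1 or TKO 2 (up to 0.0891). Of 16 OPC genes 3 were lower in TKO, Olig2 among them, with a list median of -0.33. HOX genes differed widely here, with a median of 2.57 over the list and KO libraries at 2.61 and 3.39 log2 units below the control mean, and with the HOX mean as a covariate 35 genes passed, 22 of them among the 62. Gfap, Vim, Nes, Egfr and Fgfr3 passed in that fit (adjusted p up to 0.0365), while Olig2 (0.2) and Aldh1l1 (0.0552) did not. Olig2 was also lost with Xist as a covariate (0.0525). The PEA3 factors were higher in TKO than in KO, Etv1 by 0.89 ± 0.11, Etv4 by 0.87 ± 0.13 and Etv5 by 0.52 ± 0.08, and with 1 library left out Etv1 passed without KO 2 alone and Etv4 and Etv5 in 0 fits. All 3 were lost with the HOX covariate (adjusted p = 0.108, 0.177 and 0.16). The slope of that covariate again rests largely on the QKO libraries, and the part of hindbrain tissue was not tested. Prokr1, a prokineticin receptor gene, was at 2.55 and 2.67 nRPKM in KO and 1.07 and 1.06 in TKO (-1.30 ± 0.14), against 0.902 and 1.01 in controls, and was lost with the HOX covariate (0.0797). Casq1, Bdkrb2 and Jun were lower in TKO as well, and Hjurp, Rtraf, Gstm6, Snhg6 and Irgm1 were higher. Of these Jun, Hjurp and Rtraf passed with the HOX covariate, and Casq1, Bdkrb2, Gstm6, Snhg6 and Irgm1 did not (adjusted p between 0.0855 and 0.345). Leaving out KO 1, KO 2, TKO 1 or TKO 2 gave 19, 25, 27 or 21 calls.

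Between TKO and DKO, which differ by the label ETV1, edgeR called 17 genes (0.0911%), 4 higher in TKO and 13 lower, and the glial genes Olig2 (-0.16 ± 0.09), Gfap (0.16 ± 0.26), Vim (-0.11 ± 0.07), Mlc1 (-0.08 ± 0.09) and Inka2 (0.02 ± 0.11) were not among them. A p that misses the threshold does not show that these genes were alike in both, least of all for Gfap with its wide error. Etv1 was higher in TKO by 0.88 ± 0.12 (adjusted p = 0.0159), at 3.80 and 3.67 nRPKM against 1.98 and 2.11 in DKO, although the label of TKO adds its loss. It passed without DKO 2 alone (0.0401, and up to 0.259 in the other 3 fits), and was lost with the HOX covariate (0.0802) and when the high-Xist libraries, control 1 and DKO 1, were dropped (0.0646). The median of the HOX list was 1.66 higher in TKO than in DKO. H2-T24, a class I gene, was at 2.89 and 2.90 nRPKM in TKO and 0.368 and 0.132 in DKO (3.43 ± 0.47), and passed without DKO 1 alone. Lower in TKO were AI506816, the haemoglobin gene Hba-a1 (-1.10 ± 0.13), which was at 146 and 185 nRPKM in DKO and between 61.0 and 94.8 in the other 8 libraries, and Tmem267, Acp1 and Hbb-bs. Of 10 erythroid genes 4 were lower in TKO, but Hbb-b1 and Hbb-b2 among them had the same values and may be 1 measurement. Hba-a1 was lost without TKO 1 or TKO 2 (up to 0.193). With the HOX covariate AI506816, Hba-a1 and Acp1 passed, and H2-T24 (0.071), Tmem267 (0.0802) and Hbb-bs (0.0876) did not. Acp1, at 38 tested genes from Etv1, and Rps7, at 49, were called among the 100 neighbours of that gene. Leaving out 1 library gave between 7 and 44 calls, with 44 without DKO 1, 7 without TKO 1 and 9 without TKO 2.

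Olig2 and other OPC genes were lower in QKO, which by its label lacks ETV5 as well, than in TKO. edgeR called 54 genes between QKO and TKO (0.289%), 22 higher in QKO and 32 lower. Olig2 was at 11.6 and 11 nRPKM in QKO, 0.75 ± 0.09 log2 units below TKO (adjusted p = 0.00346), and this call was lost without TKO 2 (adjusted p = 0.0706). Pdgfra (-0.46 ± 0.08, adjusted p = 0.0353) and Sox8 (-0.46 ± 0.08, adjusted p = 0.0441) were lower in QKO too, which makes 3 of 16 OPC genes, and Aqp4 was the 1 astrocyte gene of 20 (-0.83 ± 0.14). Pdgfra and Aqp4 passed without QKO 1 alone, and Sox8 passed in 0 of the 4 fits that left out a library. With Xist as a covariate Aqp4 was lost (0.0569), and without the libraries with high Xist Sox8 was lost (0.0642). Kcnip3 (-0.65 ± 0.09), Tmem229a (-0.59 ± 0.08), Car3 (-1.63 ± 0.25) and Hjurp (-0.74 ± 0.07), all higher in TKO than in controls, were lower in QKO than in TKO. Of these Hjurp passed with any 1 library left out, Kcnip3 and Tmem229a without TKO 1 or QKO 1, and Car3 without QKO 2 alone. Trib1 (-0.43 ± 0.08, adjusted p = 0.0657), Mlc1 (-0.36 ± 0.09) and Inka2 (-0.50 ± 0.11) did not pass. Higher in QKO than in TKO were Etv4 (0.81 ± 0.12), Mcm6 (0.45 ± 0.06), Serpina3n, a protease inhibitor of reactive astrocytes (1.55 ± 0.16), Akr1c19, AI506816, Tmem267 and Pla2g4e, and Crb1, Gstm6, Ublcp1 and Metap1d were lower. Etv4 passed without QKO 1 alone, Mcm6 without QKO 1 or QKO 2, and Serpina3n with any 1 library left out. Gstm6 and Ublcp1 were lost with the HOX covariate (0.0549 for both). Serpina3n was at 0.969 and 1.06 nRPKM in TKO, at 0.898 and 1.02 in controls and at 3.22 and 2.74 in QKO. Leaving out 1 library gave between 25 and 80 calls, with 80 without QKO 1, 34 without QKO 2, 27 without TKO 1 and 25 without TKO 2.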

How the data were processed

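RNA was counted in 10 libraries, 2 for each of 5 genotypes named by the labels. Libraries are numbered in accession order within a genotype, which pairs nothing. Per the labels' protocols, each library began with 1 microgram of total RNA, 5 shared a lane, and paired reads had 75 bp. Which shared a lane is not stated. Per the submitters' processing notes, reads were aligned with GSNAP to NCBIM37. The deposited counts are of uniquely aligned reads per gene, per the file headers. The deposited RPKM (nRPKM) was adjusted by the authors with a size factor for each library, per the file headers, and is used for levels only. Strand handling and annotation release: not given in the sources used here. Antisense partners and near-identical copies may share reads. RefSeq for GRCm38.p6 named 24998 of 28059 Entrez identifiers (89.1%, with 95.8% of the counts), and the rest are written as ID and their number. Except for the promoters, no coordinates are printed.

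The test was that of edgeR 4.0.16 under R 4.3.3 (quasi-likelihood F test, TMM, filterByExpr, 5 group means over all 10 libraries, 5 residual degrees of freedom, common coefficient of variation 0.0821). The p-values were adjusted by Benjamini-Hochberg over 18671 genes, and a gene was called under 0.05. A further 9388 genes were set aside. Standard errors come from the F statistic. CPM use TMM library sizes. Alternatives were DESeq2 1.42.0, other size factors, no filter, fewer libraries, and Xist or the HOX mean as a covariate. The slope of a covariate comes from differences within groups. The model was tested on simulated data. At the depth here, a floor of 3 counts is between 0.055 and 0.0938 CPM, a bound on counting error only. Cop1, Jun, Etv1, Etv4 and Etv5 are always named. Other genes named from the comparison with controls are called genes with a symbol that is no clone or predicted name, at least 1 CPM and groups that do not overlap, up to 15 each way, with up to 5 each way in the other comparisons and up to 4 called members per list. Other list members named were chosen after their values were seen. The comparison, the 49 gene lists (1 of them sex-linked) and the tests were chosen with earlier results of these data known. Of the list symbols, 708 matched and 4 did not.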

Additional observations from a re-analysis of the deposited data

How the results depend on the processing

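The 28 calls between TKO and control became 145 without the filter on low counts, 511 in a fit of the 4 libraries alone, 117 with the HOX covariate, 81 by DESeq2 and 379 without the DKO and QKO libraries, a fit added after the data were seen. Leaving out 1 library gave 13 to 18, with fewer samples in the fit. With the size factors of DESeq2 in edgeR 28 were called, the same genes. The split moved with the sex pattern: 15 higher and 15 lower with the Xist covariate, 20 of them shared with the 28, and 19 higher and 17 lower without the libraries with high Xist, 17 shared. The 62 calls between TKO and KO became 184, 208, 35, 119 and 210 in the same order of settings, and 19 to 27 with 1 library left out. The 17 between TKO and DKO became 159 without the filter, 64 with the libraries of the 2 groups alone, 82 by DESeq2, 46 with the Xist covariate, 61 without the libraries with high Xist, and 7 to 44 with 1 library left out. The 54 between QKO and TKO became 160 without the filter, 99 by DESeq2 and 25 to 80 with 1 library left out. The causes were not tested. No paired analysis was possible because the labels give the libraries no replicate numbers. Among the 28 genes and the list members given values above, 0 called values changed direction in the alternatives run. Whether depth limited the calls was not tested. Rec8, Gm7444, Akr1c19 and 2410018L13Rik rest on at most 60 counts in each of the 4 libraries. Car3, Gstm6, 3110053B16Rik and ID100862241 had at most 43 counts in each control.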

Other observations

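Among RNAs known to stay in the nucleus, Malat1 was at 23.7 and 18.6 nRPKM in controls and 35.4 and 30.0 in TKO, and Meg3 at 80.6 and 76.2 against 153.8 and 140.7. DKO 1 held 46.7 and QKO 2 58.8 nRPKM of Meg3, and QKO 1 held 172.9. Neither gene was called between TKO and control (edgeR adjusted p = 0.544 and 0.488). Kcnq1ot1, a further such RNA, was at 0.90 ± 0.29 and was not called either (edgeR adjusted p = 0.348). It passed as higher with the HOX covariate (1.28, edgeR adjusted p = 0.0109). These genes were chosen after their values were seen, and whether RNA quality had a part in them was not tested.

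Gm6969 was at 5.10 and 5.25 nRPKM in controls, 36.5 and 40.9 in TKO and 73.6 and 75.3 in QKO, at 5.44 in KO 1 but 34.4 in KO 2, and at 5.21 and 6.23 in DKO. Sycp1, a gene of meiotic chromosome pairing, was at 0.984 and 0.338 nRPKM in controls, 0.0131 and 0.00777 in TKO, and 0.180 and 0.904 in KO. Gh, the pituitary growth hormone gene, was at 187 nRPKM in DKO 1 and 55.5 in QKO 1, and at 0.0277 and 0.0330 in TKO.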
